A study of Homo sapiens with 18 samples.

Results

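The transcripts described here encode 8 stimulus-responsive transcription factors, the AP-1 proteins JUN, JUNB, JUND, FOS, FOSL1 and FOSL2, the related factor ATF3, and EGR1. They were chosen by gene symbol, with earlier results of these data known, and each of the 8 had a row among the 20802 genes listed in the counts. RKO cells, an established human colorectal carcinoma line, were transfected with 30 nM siRNA and harvested after 72 h, and 18 libraries were prepared with 3 replicates in each of 6 siRNA groups. In the reference group the cells received the nontargeting siCtrl#1, and a second nontargeting siRNA, siCtrl#2, formed another control group. Tsg101 was targeted with siTsg101#1 or siTsg101#2, and Vps28 with siVps28#1 or siVps28#2; both proteins are subunits of ESCRT-I, an endosomal complex that sorts ubiquitinated membrane proteins for lysosomal degradation. The comparison asks how transcripts respond to loss of this complex. All libraries come from 1 cell line grown in serum-containing medium, and replicate numbers are given in the labels as the batch, so that each of 3 batches holds 1 library of every siRNA.

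AP-1 is a family of dimers built from basic leucine zipper proteins. JUN proteins pair with each other or with FOS proteins, whereas FOS proteins need a JUN partner to bind the TPA response element, and ATF3 joins the same network through a related zipper. EGR1 is a zinc finger protein that binds GC-rich sites, and together with FOS and JUNB it belongs to the immediate early genes, whose transcription starts within minutes of growth factor, cytokine or stress signals because it needs no new protein synthesis and relies on kinases that activate factors already bound at their promoters.

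Library depth ran from 2561790 to 7466916 reads assigned to genes. TSG101 fell with both of its siRNAs, with log2 fold changes of -4.84 and -5.10 for siTsg101#1 and siTsg101#2, and VPS28 fell with its own, with -4.15 and -4.07 for siVps28#1 and siVps28#2 (edgeR's quasi-likelihood test with Benjamini-Hochberg adjustment, the largest of these adjusted p = 1.51e-09). Of the epithelial and colorectal markers, KRT8, KRT18, EPCAM and CDX2 were detected in every library, whereas CDH1 was at 0 counts in all and KRT19, VIL1 and MUC2 had at most 2 counts. The mesenchymal marker VIM was detected, with 73 to 415 counts, and PTPRC, CD3E and COL3A1 were at 0. COL1A1 had 0 to 11 counts per library, CD14 and PECAM1 at most 2, and VWF at most 1. Replicate 1 of siCtrl#2 stood apart from the other libraries of its group, with a chi-square per degree of freedom of 20.1 and 20.8 against them and 6.96 between those libraries. So did replicate 3 of siVps28#2 (23.6 and 21.6, against 12.1) and replicate 2 of siTsg101#2 (15.1 and 19.5, against 5.41). The same held, at lower values, for replicate 3 of siVps28#1 (10.7 and 11.4, against 6.05).

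In each gene description below, levels are normalized CPM, read counts scaled to a common library size with TMM factors, with replicates in the order of batches 1, 2 and 3. Each gene is read by an amplicon of its own, so that levels were compared between groups within a gene and never between genes. Calls required a change of at least 1.5-fold and an adjusted p-value below 0.05, with the adjustment made over all 10213 genes tested. In RNA from whole cultures, more cells carrying a transcript and more transcript per cell cannot be told apart.

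JUNB was the member that rose with all 4 on-target siRNAs, and it was the single member to do so, 1 of 8, while 2.58% of all tested genes were called higher with all 4. The gene lies on chromosome 19 at chr19:12902300-12904129, plus strand of GRCh37, and encodes a JUN protein that can oppose JUN on some promoters and is induced early by cytokine and growth factor signals. Its level was 106, 99.6 and 114 CPM with siCtrl#1 and 174, 95.3 and 112 CPM with siCtrl#2. With siTsg101#1 it was 298, 199 and 283 CPM, and with siTsg101#2 it was 222, 162 and 159 CPM. The siVps28#1 libraries held 223, 214 and 212 CPM, and those of siVps28#2 held 227, 187 and 159 CPM. Every on-target library was thus above every siCtrl#1 library, and the overlap with the nontargeting groups came from replicate 1 of siCtrl#2, which at 174 CPM exceeded 3 of the 12 on-target libraries.

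The JUNB change against siCtrl#1 was 1.28 ± 0.20 (log2 fold change ± SE) and 0.76 ± 0.20 for the first and second siRNA against Tsg101, and 1.02 ± 0.20 and 0.84 ± 0.20 for those against Vps28, with adjusted p-values from edgeR's quasi-likelihood test of 6.71e-05, 0.00979, 0.00216 and 0.00576. The mean over the 4 siRNAs was 0.98 ± 0.17 (adjusted p = 2.07e-04, edgeR), whereas siCtrl#2 differed from siCtrl#1 by 0.25 ± 0.20 (adjusted p = 0.618, edgeR), and by -0.04 without its replicate 1 (adjusted p = 0.933). Within batches, JUNB was higher than in the siCtrl#1 library of the same batch in 12 of 12 on-target libraries, by 0.47 to 1.49 on the log2 scale, and in 1 of 3 siCtrl#2 libraries. A JUNB call was lost under the following choices. Without replicate 1 of siTsg101#2 the change with that siRNA was 0.59 (adjusted p = 0.0733, edgeR), and against siCtrl#2 as the reference the changes with siTsg101#2 and siVps28#2 were 0.51 and 0.59 (adjusted p = 0.0856 and 0.0645, edgeR), and over 28 alternatives these adjusted p-values ran from 5.79e-04 to 0.0856 and from 1.26e-04 to 0.0645. With replicate 1 of siCtrl#2 left out of that reference, all 4 JUNB changes were called again, at 1.32, 0.79, 1.06 and 0.88. This omission was chosen after seeing the data. It removed the siCtrl#2 library of batch 1 while the on-target libraries of that batch stayed in. Over all siRNAs, JUNB averaged 208, 160 and 173 CPM in batches 1, 2 and 3.

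The exons of JUNB overlap 259 bases of HOOK2, which is transcribed from the opposite strand, and 11.8% of its 50-base stretches are found on that strand. The strand setting of the counting is not given in the sources used here. HOOK2 itself, which encodes a microtubule adaptor, was read with 18 to 73 counts per library and did not pass the test against siCtrl#1, with a mean difference of -0.03 ± 0.18 (adjusted p = 0.928, edgeR) over the on-target siRNAs. With siCtrl#2 as the reference HOOK2 passed both thresholds, at 0.60 (adjusted p = 0.0405, edgeR) and at 0.70 without replicate 1 of siCtrl#2 (adjusted p = 0.0481, edgeR), and over 28 alternatives its adjusted p-values ran from 0.0405 to 1.00.

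FOSL2 rose with 3 of the 4 on-target siRNAs. It lies on chromosome 2 at chr2:28615315-28640184, plus strand of GRCh37, and encodes FRA-2, a FOS protein without the strong activation domain of FOS. Its level was 12.5, 7.38 and 8.89 CPM with siCtrl#1 and 16.7, 8.66 and 13.3 CPM with siCtrl#2. The siTsg101#1 libraries held 29.9, 21.0 and 26.4 CPM, and the siTsg101#2 libraries 24.3, 14.0 and 22.3 CPM. With siVps28#1 the values were 19.2, 15.8 and 25.6 CPM, and with siVps28#2 they were 13.0, 13.9 and 12.3 CPM. The first 3 of these on-target groups lay entirely above siCtrl#1, while siVps28#2 overlapped both nontargeting groups and did not overlap its next higher neighbour, siTsg101#2.

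The FOSL2 change was 1.41 ± 0.27 with siTsg101#1, 1.06 ± 0.26 with siTsg101#2 and 1.07 ± 0.27 with siVps28#1, all 3 called (adjusted p = 4.36e-04, 0.00568 and 0.0130, edgeR's quasi-likelihood test). With siVps28#2 the difference was 0.44 ± 0.27 (adjusted p = 0.308, edgeR), and the mean over the 4 siRNAs was 0.99 ± 0.22 (adjusted p = 0.00216, edgeR). FOSL2 was higher than in the siCtrl#1 library of its batch in 12 of 12 on-target libraries, by 0.06 to 1.53 on the log2 scale, but also in 3 of 3 siCtrl#2 libraries, by 0.22 to 0.56. The siVps28#1 call rested on single libraries, since it was lost without replicate 2 of siCtrl#1 (0.93, adjusted p = 0.0664), without replicate 3 of siCtrl#1 (1.00, adjusted p = 0.0556) and without replicate 3 of siVps28#1 (0.84, adjusted p = 0.0967), in edgeR fits whose adjusted p-values over 28 alternatives ran from 8.99e-04 to 0.182. Replicate 3 of siVps28#1 was among the libraries that stood apart in their groups. Against siCtrl#2 the changes with siTsg101#2 and siVps28#1 and the mean were 0.65, 0.65 and 0.58 (adjusted p = 0.0831, 0.182 and 0.0661, edgeR). Without replicate 1 of siCtrl#2 in that reference they were 0.86, 0.87 and 0.79 (adjusted p = 0.0433, 0.0886 and 0.0352, edgeR), so that the siTsg101#2 value and the mean were called again, and over 28 alternatives the adjusted p of these 2 ran from 2.91e-04 to 0.0831 and from 4.18e-05 to 0.0661. The omission of that library was chosen after seeing the data here too.

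FOSL2 and JUNB were the members called in the mean over the on-target siRNAs, 2 of 8 against 8.56% of all tested genes called higher, and no member was called lower in the mean (6.54% of all genes) or with all 4 siRNAs (1.54%) by edgeR or DESeq2. Against siCtrl#1 no member had a lower mean at all, so that the count of lower values at an unadjusted p under 0.05 was 0 as well. With siCtrl#2 as the reference the means of JUN (-0.16), FOSL1 (-0.31) and EGR1 (-0.28) were below 0, none of them called. The promoters of JUNB and FOSL2 are shown because they belong to the pair of members that passed the test most often, and that of EGR1 because its serum response elements are those typical of immediate early genes. The sequences run 5′ to 3′ on the strand of the gene from 250 bases before to 50 after the start site, from RefSeq (GRCh38.p14), at chr19:12791236-12791535 (plus) for JUNB, chr2:28392608-28392907 (plus) for FOSL2 and chr5:138465229-138465528 (plus) for EGR1. Capitals mark motif matches, which are the TPA response element in FOSL2 and, in EGR1, an EGR site followed by a pair of CArG boxes, the core of the serum response element.
JUNB: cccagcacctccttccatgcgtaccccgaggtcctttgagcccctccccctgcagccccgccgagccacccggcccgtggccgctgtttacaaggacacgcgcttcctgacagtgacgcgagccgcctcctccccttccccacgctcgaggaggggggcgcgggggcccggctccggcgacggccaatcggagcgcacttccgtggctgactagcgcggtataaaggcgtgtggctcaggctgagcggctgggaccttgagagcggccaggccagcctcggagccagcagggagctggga
FOSL2: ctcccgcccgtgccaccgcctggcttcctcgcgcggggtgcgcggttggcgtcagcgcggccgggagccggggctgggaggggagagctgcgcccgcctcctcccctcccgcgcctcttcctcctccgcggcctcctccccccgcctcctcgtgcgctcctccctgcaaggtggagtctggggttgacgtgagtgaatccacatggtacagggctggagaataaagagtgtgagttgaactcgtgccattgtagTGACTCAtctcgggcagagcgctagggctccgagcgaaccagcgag
EGR1: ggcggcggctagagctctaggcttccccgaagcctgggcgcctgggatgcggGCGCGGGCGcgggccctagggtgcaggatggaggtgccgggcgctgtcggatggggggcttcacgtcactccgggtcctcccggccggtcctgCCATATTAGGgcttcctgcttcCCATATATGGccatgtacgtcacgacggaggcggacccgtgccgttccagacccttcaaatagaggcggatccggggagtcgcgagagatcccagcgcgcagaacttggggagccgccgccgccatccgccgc
The search covered exact matches only, on both strands of these windows. Its motifs were the TPA response element TGANTCA, the cAMP response element TGACGTCA, the EGR site GCGNGGGCG, the CArG box and the NF-κB consensus, and no matches overlapped. RefSeq promoters were found for 7 members, FOSL1 having no entry. The TPA response element in FOSL2 begins 4 bases after the start site, and 7.71% of 35116 promoters hold one. The EGR site of EGR1 begins at -198 and its CArG boxes at -105 and -83, which are motifs held by 9.43% and 1.29% of promoters. JUND holds a cAMP response element at -200 (1.85% of promoters). The windows of JUNB, JUN, FOS and ATF3 hold no exact match to any of the 5 motifs, and 11.3% of promoters hold the NF-κB consensus. Near matches and sites outside the windows were not searched, so such sites may exist in these genes.

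**Figure D1:**
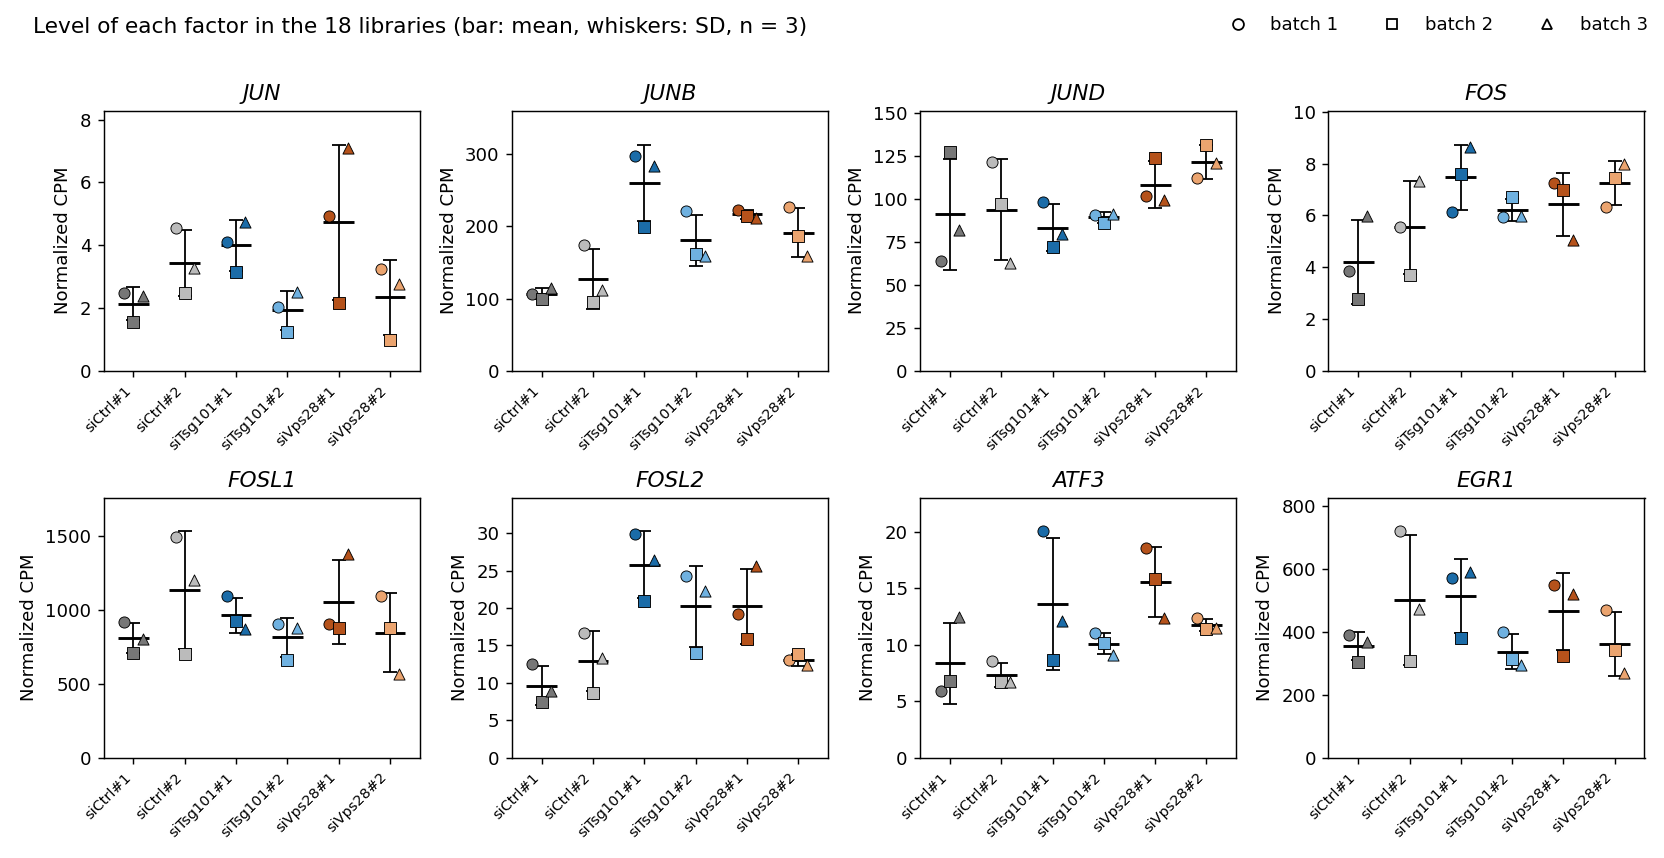
TMM-normalized CPM of each of the 8 factors (vertical axes, each gene on its own scale from 0) in the 3 libraries of each siRNA group, with bars for the mean and whiskers for the SD (n = 3), and symbols for the batch. The on-target libraries of JUNB sit between 159 and 298 CPM and those of siCtrl#1 between 99.6 and 114 CPM, whereas FOSL1 and EGR1 reach their highest values, 1489 and 718 CPM, in replicate 1 of siCtrl#2.

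FOS, the founding immediate early gene, whose protein needs a JUN partner in classical AP-1, was near the limit of the measurement, with 9 to 62 counts per library. The gene is at chr14:75745529-75748933, plus strand of GRCh37. Its level was 3.85, 2.77 and 5.98 CPM with siCtrl#1 and 5.56, 3.71 and 7.32 CPM with siCtrl#2. With siTsg101#1 it was 6.14, 7.61 and 8.65 CPM, and the other on-target libraries held 5.04 to 7.98 CPM. Only the siTsg101#1 and siVps28#2 libraries were all above siCtrl#1, and both overlapped siCtrl#2. FOS rose by 0.80 ± 0.30 with siTsg101#1 (adjusted p = 0.0496, edgeR's quasi-likelihood test), a call that held in 7 of 27 alternatives, whose adjusted p-values ran from 0.0176 to 0.375. DESeq2 gave an adjusted p of 0.0633 for it. It was the single member call against siCtrl#1 lost without replicate 2 of siTsg101#2 (0.82, adjusted p = 0.0506, edgeR) or replicate 3 of siVps28#2 (0.80, adjusted p = 0.0528, edgeR), which stood apart in their groups. Differences with siTsg101#2, siVps28#1 and siVps28#2 were 0.50 ± 0.29, 0.54 ± 0.31 and 0.72 ± 0.29 (adjusted p = 0.237, 0.309 and 0.0995, edgeR). The mean of 0.64 ± 0.24 did not pass (adjusted p = 0.0588, edgeR) but did with the batch as a replicate block (0.66, adjusted p = 0.0415, edgeR), and without replicate 3 of siCtrl#1 (1.02, adjusted p = 0.0231) or replicate 2 of siCtrl#2 (0.64, adjusted p = 0.0499). Over 27 alternatives the adjusted p of this mean ran from 0.0231 to 0.547.

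ATF3, a stress-induced factor that forms repressive homodimers and also pairs with JUN proteins, was read with 22 to 87 counts per library. It lies at chr1:212738676-212794119, plus strand of GRCh37. Its level was 5.89, 6.76 and 12.5 CPM with siCtrl#1, 8.59, 6.68 and 6.74 CPM with siCtrl#2, and 18.6, 15.8 and 12.4 CPM with siVps28#1. The siTsg101#1 libraries held 20.1, 8.66 and 12.1 CPM, and those of siTsg101#2 and siVps28#2 held 9.14 to 12.3 CPM. Replicate 3 of siCtrl#1 was the high library of its group, and every on-target library exceeded both remaining siCtrl#1 libraries. No ATF3 difference was called by edgeR against siCtrl#1, the largest being 0.85 ± 0.29 with siVps28#1 (adjusted p = 0.0629, edgeR); that value was called in 9 of 28 alternatives, among them the replicate block (0.84, adjusted p = 0.0461, edgeR), DESeq2 (adjusted p = 0.0465) and siCtrl#2 as the reference (1.08, adjusted p = 0.0318, edgeR), and its adjusted p-values ran from 0.0118 to 0.259. The mean over the on-target siRNAs was 0.53 ± 0.23 (adjusted p = 0.10, edgeR), and without replicate 3 of siCtrl#1 it was 0.98 (adjusted p = 0.0153, edgeR). This mean was also called with siCtrl#2 as the reference, at 0.77 (adjusted p = 0.0311, edgeR), or 0.89 without replicate 1 of siCtrl#2 (adjusted p = 0.0423), and with both nontargeting siRNAs, at 0.65 (adjusted p = 0.00888, edgeR), and over 28 alternatives the adjusted p ran from 0.00888 to 0.442. The siTsg101#1 difference of 0.61 ± 0.29 was called without the same library (1.06, adjusted p = 0.0191) or without replicate 2 of siTsg101#1 (0.85, adjusted p = 0.0428), and with siCtrl#2 as the reference (0.85, adjusted p = 0.0493), in edgeR fits whose adjusted p-values over 28 alternatives ran from 0.0191 to 0.513. Within batches, ATF3 was higher in 8 of 12 on-target libraries, with a median difference of 1.31 in batch 1, 0.64 in batch 2 and -0.08 in batch 3.

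JUN, the main partner of FOS proteins, had the fewest reads, 5 to 34 counts per library, and lies at chr1:59242517-59249720, minus strand of GRCh37. Its level was 2.49, 1.54 and 2.39 CPM with siCtrl#1, 4.09, 3.15 and 4.75 CPM with siTsg101#1, and 4.93, 2.16 and 7.10 CPM with siVps28#1. The siCtrl#2 libraries, at 4.55, 2.48 and 3.28 CPM, overlapped both of these on-target groups, and siTsg101#2 and siVps28#2 held 0.991 to 3.25 CPM. The differences against siCtrl#1 stood at 0.88 ± 0.45 for siTsg101#1 and 1.10 ± 0.45 for siVps28#1, and neither passed (adjusted p = 0.158 and 0.131, edgeR's quasi-likelihood test). Both were called with the replicate block, at 0.94 and 1.14 (adjusted p = 0.0430 and 0.0278, edgeR), and the latter also without replicate 2 of siVps28#1, at 1.46 (adjusted p = 0.0448, edgeR). Over 26 alternatives the adjusted p-values ran from 0.0430 to 0.737 and from 0.0278 to 0.639. With siTsg101#2 and siVps28#2 the values were -0.20 ± 0.48 and 0.09 ± 0.47. Set against each other, siTsg101#1 and siTsg101#2 gave a JUN difference of 1.08 ± 0.44, and siVps28#1 and siVps28#2 one of 1.01 ± 0.42, neither of which passed (adjusted p = 0.136 and 0.487, edgeR).

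EGR1, FOSL1 and JUND were read with more counts and passed no comparison with siCtrl#1 in the fit of all libraries. EGR1, at chr5:137801168-137804992 on the plus strand of GRCh37, had group means of 336 ± 56.2 CPM with siTsg101#2, 354 ± 44.6 with siCtrl#1, 360 ± 102 with siVps28#2, 465 ± 123 with siVps28#1, 500 ± 207 with siCtrl#2 and 513 ± 116 with siTsg101#1 (SD, n = 3). Neighbouring groups in this order overlapped throughout. Its largest difference from siCtrl#1 among the on-target siRNAs was 0.54 ± 0.26 with siTsg101#1 (adjusted p = 0.133, edgeR's quasi-likelihood test), and siCtrl#2 differed by 0.50 ± 0.26 (adjusted p = 0.387, edgeR), or by 0.14 without its replicate 1 (adjusted p = 0.808).

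FOSL1 encodes FRA-1, a FOS protein that is abundant in many carcinoma lines downstream of RAS signalling, and lies at chr11:65659520-65668044, minus strand of GRCh37. A pseudogene, FOSL1P1, shares 2.94% of its 50-base stretches. Group means ran from 809 ± 103 CPM with siCtrl#1 to 1130 ± 398 CPM with siCtrl#2 (SD, n = 3), and all neighbours overlapped. The mean over the on-target siRNAs was 0.17 ± 0.19 (adjusted p = 0.559, edgeR), and -0.31 with siCtrl#2 as the reference, or -0.06 without replicate 1 of siCtrl#2. JUND, a JUN protein that is expressed constitutively in many cell types, lies at chr19:18390504-18392432, minus strand of GRCh37, and ranged from 83.4 ± 13.8 CPM with siTsg101#1 to 122 ± 9.75 CPM with siVps28#2 (SD, n = 3). Its siCtrl#1 libraries were spread over 64.1, 127 and 81.9 CPM, a range that left only 2 other libraries outside it, and its mean difference was 0.13 ± 0.17 (adjusted p = 0.625, edgeR). With siVps28#2 JUND differed by 0.43 ± 0.22 (adjusted p = 0.207, edgeR), which was called without replicate 2 of siCtrl#1, at 0.73 (adjusted p = 0.0313, edgeR; from 0.0313 to 0.594 over 28 alternatives).

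**Figure D2:**
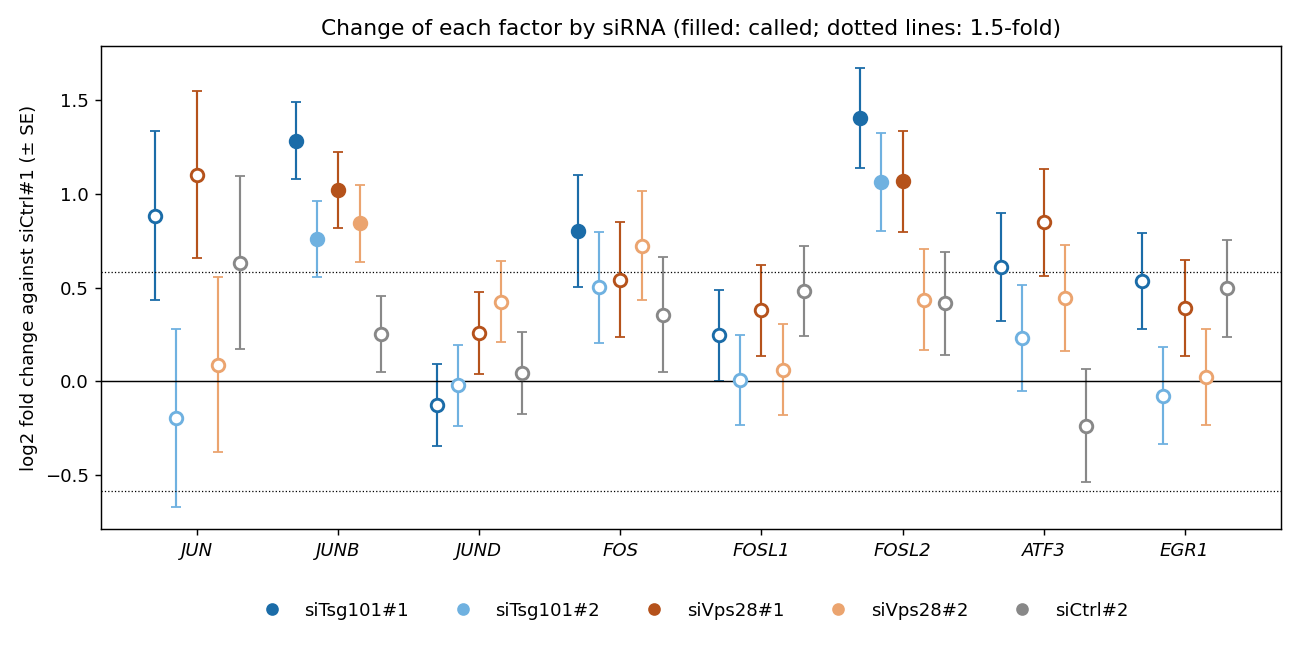
log2 fold change against siCtrl#1 (vertical axis) with its SE for the 8 factors and 5 siRNAs; filled points passed both thresholds and dotted lines mark 1.5-fold. JUNB is filled for all 4 on-target siRNAs, from 0.76 to 1.28, FOSL2 for 3 of them and FOS for siTsg101#1, and no siCtrl#2 point is filled.

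Counted by siRNA, 3 of 8 members rose with siTsg101#1 (11.8% of all genes were called higher), 2 with siTsg101#2 (10.4%), 2 with siVps28#1 (4.92%) and 1 with siVps28#2 (7.09%). With the replicate block these counts were 4, 2, 4 and 1. DESeq2 called 2, 2, 3 and 1. The median change of the 8 members was 0.71, 0.12, 0.70 and 0.43 with these siRNAs, where the medians of all genes were between -0.007 and 0.016. Over the mean of the on-target siRNAs it was 0.50 with 8 of 8 values above 0, beside 49.7% of all genes. With siCtrl#2, however, the median of the members was 0.39 with 7 of 8 values above 0, or 0.17 with 5 of 8 above 0 when replicate 1 of siCtrl#2 was left out. No member of the 8 had its lowest on-target library above its highest nontargeting library, which was the case for 1.96% of all genes. Since the members were chosen with earlier results of these data known, these counts beside the shares of all genes are descriptions without a test.

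Comparisons between on-target siRNAs, and of siCtrl#2 with siCtrl#1, called no member with edgeR's quasi-likelihood test or with DESeq2. Between siTsg101 and siVps28 the count was 0 of 8 (6.23% of all genes in either direction), with 2 members at an unadjusted p under 0.05. These were FOSL2, higher by 0.48 ± 0.18 with siTsg101 (adjusted p = 0.0782, edgeR), and JUND, at -0.42 ± 0.15 (adjusted p = 0.0821, edgeR). Without replicate 3 of siVps28#1 the FOSL2 difference was called, at 0.59 (adjusted p = 0.0456, edgeR; from 0.0296 to 0.193 over 25 alternatives). Between siTsg101#1 and siTsg101#2 it was 0 of 8 (6.98%), with 3 at an unadjusted p under 0.05, and with the replicate block 2 were called, JUN at 1.07 and EGR1 at 0.60 (adjusted p = 0.0370 and 0.0404, edgeR). Between siVps28#1 and siVps28#2 it was 0 of 8 (0.48%) with 2 at an unadjusted p under 0.05, FOSL2 and JUN. The siCtrl#2 group differed from siCtrl#1 in 0 of 8 members (2.09%), none of them at an unadjusted p under 0.05 by either tool. The percentages in this paragraph are shares of all genes called. No share of all genes at the unadjusted threshold is given, so the counts at that threshold have no background beside them.

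Across the 18 libraries, the log2 levels of JUNB correlated with those of FOSL2 (Pearson r = 0.83) and ATF3 (r = 0.79), and FOSL1 with EGR1 (r = 0.80). The libraries share siRNA groups, batches and depth, so these values are descriptions without a test. JUND stood apart, with values from -0.18 with JUN to 0.36 with ATF3. Among all tested genes, those most like JUNB over the 18 libraries were RNF24 (r = 0.95), KLHL21 (r = 0.95) and KDM6B (r = 0.94), and those most like FOSL2 were SMCR8 (r = 0.93), COX6C (r = 0.91) and MCRS1 (r = 0.90). KDM6B also led for ATF3 (r = 0.85), followed by PML (r = 0.83) and KEAP1 (r = 0.81). For the remaining members the first genes were NRDC for FOS (r = 0.84), GBE1 for JUN (r = 0.84), PGRMC1 for JUND (r = 0.89), DHX34 for FOSL1 (r = 0.82) and DOT1L for EGR1 (r = 0.83).

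**Figure D3:**
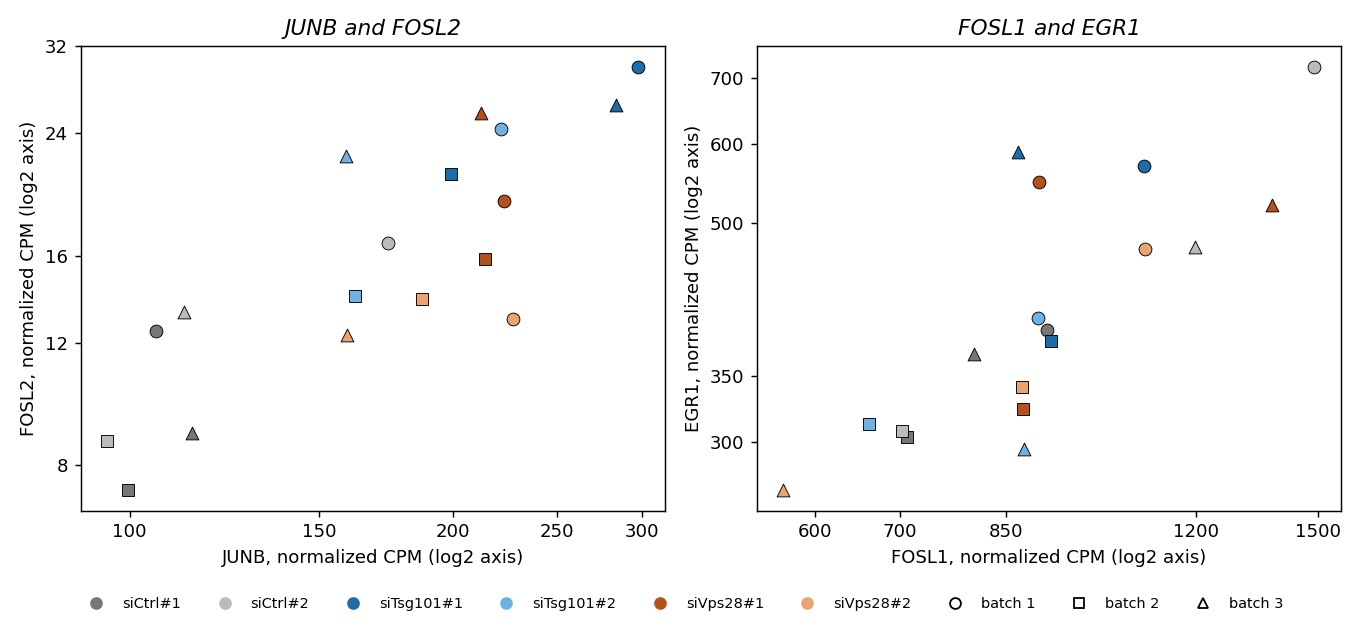
Normalized CPM of JUNB against FOSL2 (left) and of FOSL1 against EGR1 (right) in the 18 libraries, on log2 axes, with colours for the siRNA and symbols for the batch. In the left panel siCtrl#1 lies at the lower left and siTsg101#1 reaches the upper right (r = 0.83), with siCtrl#2 replicate 1 (174 and 16.7 CPM) among the on-target libraries, whereas in the right panel siCtrl#2 replicate 1 is the highest point and the siRNA groups are intermixed (r = 0.80).

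Genes around these factors were taken from 5 lists written from general knowledge, but with earlier results of these data known. Among other AP-1 and partner basic leucine zipper factors, 11 of 20 were tested, and 2 rose and 1 fell in the mean over the on-target siRNAs. Of all tested genes, 8.56% were called higher and 6.54% lower in that mean, and 2.58% and 1.54% with all 4 siRNAs. CEBPB, a factor of the inflammatory response that can pair with AP-1 proteins, rose with all 4 siRNAs (mean 3.05 ± 0.43, adjusted p = 1.97e-05, edgeR). It had 11, 0 and 23 counts with siCtrl#1 and 160, 125 and 468 counts with siTsg101#1. The siTsg101#2 libraries held 369, 272 and 301 counts, those of siVps28#1 held 45, 21 and 35, and those of siVps28#2 held 51, 26 and 53. The CEBPB mean was 2.61 without replicate 2 of siCtrl#1 (adjusted p = 1.95e-04, edgeR) and 3.82 without its replicate 3 (adjusted p = 9.90e-05, edgeR), and over 27 alternatives the largest adjusted p was 4.64e-04. NFE2L2, the regulator of the oxidative stress response, rose by 0.83 ± 0.18 (adjusted p = 0.00180, edgeR), also with all 4, and was 0.51 without a call when siCtrl#2 was the reference, or 0.41 without replicate 1 of siCtrl#2. FOSB, the remaining FOS protein tested, fell by 0.63 ± 0.13 (adjusted p = 0.00130, edgeR) while FOS and FOSL2 had positive means, and against siCtrl#2 its -0.44 (-0.35 without replicate 1 of siCtrl#2) was below the 1.5-fold threshold, as were -0.56 and -0.57 without replicate 2 or 3 of siCtrl#1. FOSB was called lower with siTsg101#1 (-0.61) and siTsg101#2 (-1.06). With siVps28#1 and siVps28#2 FOSB was -0.35 and -0.48, neither called (adjusted p = 0.229 and 0.0603, edgeR).

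Among 26 tested of 30 other immediate early genes, 5 rose and 1 fell in the mean, beside 8.56% and 6.54% of all tested genes. DUSP1, which encodes a phosphatase that inactivates MAP kinases, and MCL1, an anti-apoptotic BCL2 relative, rose with all 4 siRNAs, by 1.04 ± 0.19 and 1.01 ± 0.12 on average (adjusted p = 2.53e-04 and 1.77e-06, edgeR). With siCtrl#2 as the reference the DUSP1 mean of 0.88 was called (adjusted p = 0.00165, edgeR), but its siVps28#1 value of 0.56 was not (adjusted p = 0.177, edgeR). Without replicate 1 of siCtrl#2 in that reference, DUSP1 with siTsg101#2 was not called either (0.59, adjusted p = 0.110, edgeR). MCL1 also rose with siCtrl#2, by 0.81 (adjusted p = 0.00178, edgeR), and by 0.76 without replicate 1 of that group (adjusted p = 0.00467). TRIB1, a pseudokinase, rose by 0.86 ± 0.17 (adjusted p = 8.37e-04, edgeR), and EGR2, the relative of EGR1, by 1.01 ± 0.32 (adjusted p = 0.0237, edgeR), but the EGR2 value was -0.19 with siCtrl#2 as the reference (0.10 without replicate 1 of siCtrl#2), 0.95 without replicate 1 of siCtrl#1 (adjusted p = 0.101, edgeR) and 0.87 without its replicate 2 (adjusted p = 0.113, edgeR). The list's median mean change was 0.04, beside -0.003 for all genes.

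In the MAPK cascade and its ternary complex factors, which lie upstream of FOS and EGR1, 21 of 25 were tested. None was called with all 4 siRNAs (2.58% of all tested genes higher and 1.54% lower). In the mean 2 rose and 2 fell, beside 8.56% and 6.54% of all tested genes. The kinase genes MAP2K3 (0.68 ± 0.12) and MAP2K4 (0.59 ± 0.14) rose, and MAP3K1 (-0.91 ± 0.13) and RPS6KA5 (-0.80 ± 0.25) fell, with adjusted p-values from edgeR of 2.80e-04, 0.00425, 1.43e-05 and 0.0202. MAP2K3 was called with siTsg101#1 (1.66) and siTsg101#2 (0.82). With siVps28#1 and siVps28#2 MAP2K3 was 0.20 and 0.02, neither called (adjusted p = 0.483 and 0.941, edgeR). MAP3K1 and RPS6KA5 also fell with siCtrl#2, by 0.69 and 1.30 on the log2 scale (by 0.66 and 1.39 without its replicate 1), and with siCtrl#2 as the reference RPS6KA5 was 0.49 and MAP2K4 was -0.0068, so that both directions depended on the control. MAP2K4 lay at the 1.5-fold threshold, with 0.52 to 0.71 over the libraries left out. Without replicate 2 of siCtrl#1, RPS6KA5 was -0.50 (adjusted p = 0.237, edgeR). Of 13 genes for degradation or corepression of the members, all tested, 1 fell and none rose in the mean, beside 6.54% and 8.56% of all tested genes. The gene that fell was USP28, which encodes a deubiquitinase, by 0.65 ± 0.16 (adjusted p = 0.00422, edgeR). Without replicate 1 of siCtrl#1 the USP28 value was -0.52 (adjusted p = 0.0617, edgeR).

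Of 30 genes known as AP-1 or EGR1 targets, 24 were tested. In the mean 10 rose and 1 fell, beside 8.56% and 6.54% of all tested genes. With all 4 siRNAs 5 rose and 1 fell, beside 2.58% and 1.54% of all tested genes. The median mean change of this list was 0.51. CXCL8, which encodes the chemokine interleukin 8, had 2 to 6 counts in each nontargeting library and 246 to 1231 counts in each on-target library, a mean change of 6.53 ± 0.35 (adjusted p = 7.20e-12, edgeR). The cytokine gene IL11 rose by 1.98 ± 0.33 and the collagenase gene MMP1 by 1.82 ± 0.41 (adjusted p = 1.30e-04 and 0.00226, edgeR). With siCtrl#2 as the reference these means were 1.02 and 1.76, still called (adjusted p = 0.0210 and 0.00414, edgeR). Not called there were IL11 with siTsg101#1 (0.17) and siVps28#2 (0.62) and MMP1 with siTsg101#1 (1.31, adjusted p = 0.0654, edgeR). Without replicate 1 of siCtrl#2 in that reference these were still not called, nor was MMP1 with siVps28#1 (1.87, adjusted p = 0.0660, edgeR). The stromelysin gene MMP10 had 0, 0 and 2 counts with siCtrl#1, so that its fold was taken against a floor of 3 counts per library; it was at least 10.2-fold and 7.02-fold higher with the first and second siRNA against Tsg101, and at least 6.98-fold and 9.59-fold higher with those against Vps28. CDKN1A, the p21 gene, rose by 0.88 ± 0.14 (adjusted p = 9.42e-05, edgeR) but also by 0.69 with siCtrl#2 (adjusted p = 0.0303, edgeR), a call lost without its replicate 1 (0.53, adjusted p = 0.0785), and CCND1, the cyclin D1 gene, fell by 0.85 ± 0.13 (adjusted p = 4.06e-05, edgeR). With siCtrl#2 as the reference, CDKN1A (0.19) and CCND1 (-0.56) were not called, nor were MCL1 (0.20), TRIB1 (0.55), MAP3K1 (-0.22) and USP28 (-0.39). Without replicate 1 of siCtrl#2 in that reference these 6 were still not called, at 0.34, -0.39, 0.25, 0.53, -0.26 and -0.36. CXCL8, IL11 and MMP10 are inflammation and matrix genes that other factors, NF-κB among them, also control.

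**Figure D4:**
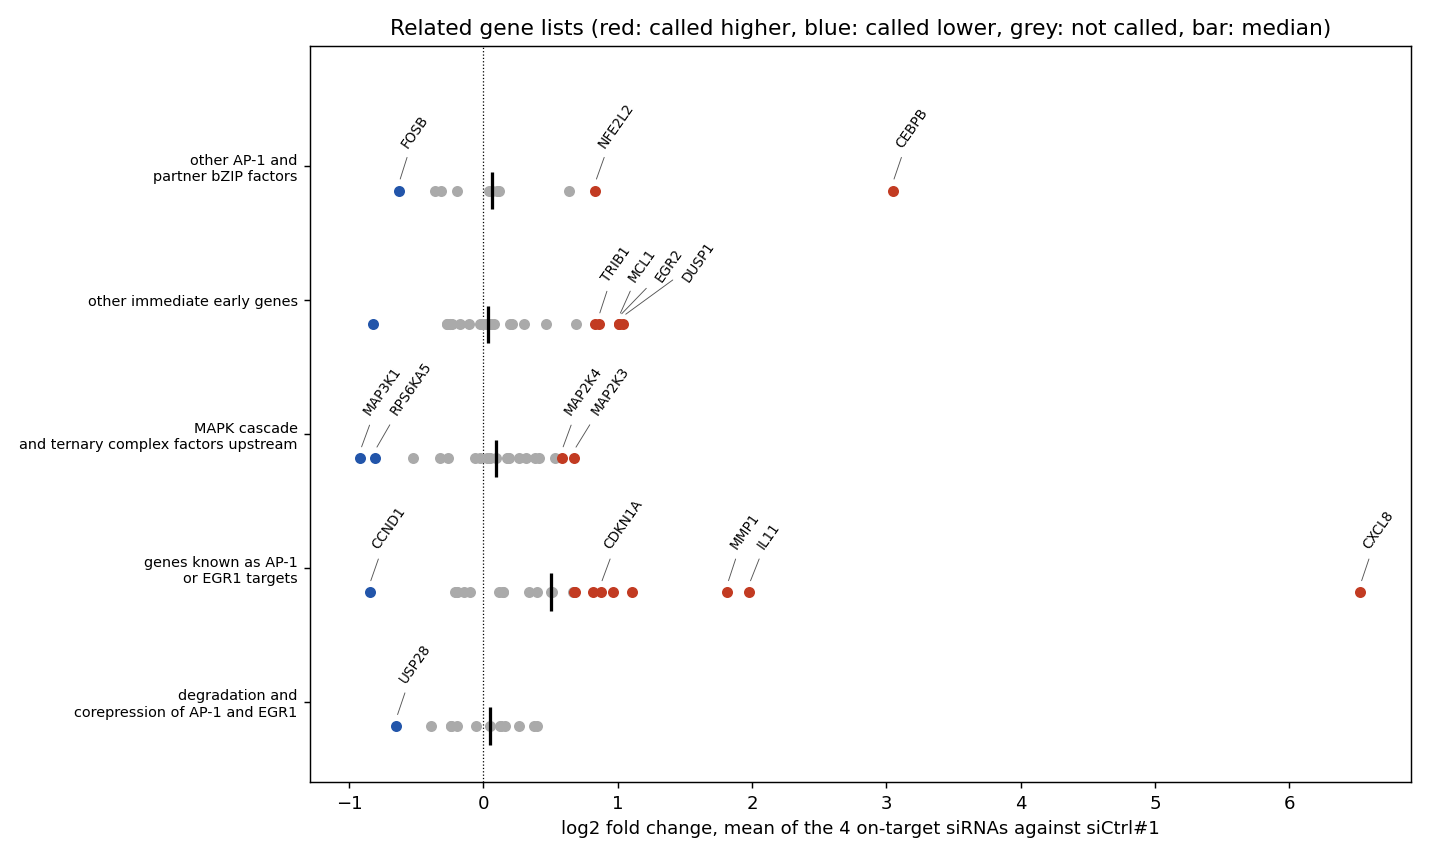
Change against siCtrl#1 averaged over the 4 on-target siRNAs (horizontal axis, log2) for every tested gene of the 5 lists except MMP10, whose fold is a lower bound; red and blue points were called higher and lower, and black bars mark the median of the genes drawn. The target list holds CXCL8 at 6.53 and further red points, while the other lists are centred between 0.04 and 0.09.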

How the data were processed

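RKO cells in 6 siRNA groups of 3 replicates were profiled with an Ion AmpliSeq transcriptome panel on an Ion Proton. Per the submitters' notes, reads were aligned by the authors with TMAP to the panel's hg19 reference, and the counts they deposited came from HTSeq 0.6.0, as whole reads per gene with no normalization; the strand setting is not given in the sources used here. Counted reads were 45.4% to 46.68% of all reads of a library.

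RefSeq identifiers were matched to symbols for 20224 of 20802 genes. Genes with more than 100 counts over the libraries (10632) were kept, 419 of a noncoding type were left out, and 10213 were tested. All 6 groups were fitted together in edgeR 4.0.16 under R 4.3.3, with TMM factors, the quasi-likelihood test and Benjamini-Hochberg adjustment, after testing on simulated data. Calls needed a 1.5-fold change and an adjusted p-value under 0.05. Log levels used a prior count of 2. Per the study's text, replicates are independent experiments. Reads carry no molecular identifiers.

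The labels name the replicate number as the batch, so numbers paired the libraries; deviations of same-numbered libraries correlated with a mean of 0.145 (-0.148 to 0.389, 45 pairs). Alternatives were DESeq2 1.42.0, RLE size factors, the omission of the low-count filter, a minimum of 10 counts per library, inclusion of noncoding genes, siCtrl#2 or both nontargeting siRNAs as the reference, a replicate block, the adjusted p-value alone, only the groups compared, and each library left out. siCtrl#2 as the reference without its replicate 1 was chosen after seeing the data. The members and lists were chosen with earlier results of these data known. Genes named from a list were those called with all 4 on-target siRNAs and at most the 4 largest mean changes called, and likeness genes were the 3 with the highest Pearson correlation.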

Additional observations from a re-analysis of the deposited data

Results flagged for a closer look

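No difference between the siRNAs against Tsg101 and Vps28, or between siRNAs against 1 target, was called for the 8 factors in the fit of all 18 libraries with the siRNA as its single term; the alternatives that called one are given beside the results and among the processing choices. Differences were called for genes named beside them. Between siTsg101 and siVps28, edgeR's quasi-likelihood test called CEBPB higher with siTsg101 by 2.72 ± 0.28 on the log2 scale (adjusted p = 2.35e-07) and MAP2K3 higher by 1.13 ± 0.10 (adjusted p = 5.84e-08). Between siTsg101#1 and siTsg101#2 it called CXCL8 (1.58 ± 0.23, adjusted p = 1.19e-04), EGR2 (1.39 ± 0.34, adjusted p = 0.0124), MAP2K3 (0.84 ± 0.14, adjusted p = 6.87e-04) and RPS6KA5 (1.17 ± 0.34, adjusted p = 0.0372) higher with siTsg101#1. It called IL11 (-1.34 ± 0.35, adjusted p = 0.0195) and MAP3K1 (-0.66 ± 0.17, adjusted p = 0.0191) lower there. Leaving out single libraries moved EGR2 to as low as 1.18, RPS6KA5 to 1.02, IL11 to -0.95 and MAP3K1 to -0.54, and each of these calls was lost for some of them. EGR2 was lost without siTsg101#1 replicate 3 or siTsg101#2 replicate 2 or 3, IL11 without siTsg101#1 replicate 2 or siTsg101#2 replicate 1 or 3, MAP3K1 without any 1 siTsg101#1 library or siTsg101#2 replicate 2, and RPS6KA5 without any 1 siTsg101#1 library or siTsg101#2 replicate 2 or 3.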

How the results depend on the processing

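Of 2619 recomputed log2 fold changes, 2425 kept their direction and their side of the threshold, 87 lost a call, 33 gained one and 74 changed sign. With siCtrl#2 as the reference the members called were 0 with siTsg101#2, 0 with siVps28#2 and 0 with all 4 siRNAs. The replicate block gave 4 members with siVps28#1 and 2 between siTsg101#1 and siTsg101#2, and beyond the blocked values given beside the results it changed no other call. Between siTsg101#1 and siTsg101#2, 1 member was called with no low-count filter and 1 in the fit of only the groups compared. Over the libraries left out in turn, members called ranged from 2 to 4 with siTsg101#1, 1 to 2 with siTsg101#2 (1 without siTsg101#2 replicate 1), 1 to 3 with siVps28#1 (1 without siCtrl#1 replicate 2 or siVps28#1 replicate 3), 1 to 2 with siVps28#2 (2 without siCtrl#1 replicate 2, where JUND was added, or 3, where FOS was), 2 to 4 in the mean (4 without siCtrl#1 replicate 3), 0 to 1 with all 4 siRNAs (0 without siTsg101#2 replicate 1), 0 to 1 between siTsg101 and siVps28 (1 without siVps28#1 replicate 3) and 0 to 1 between siTsg101#1 and siTsg101#2 (1 without siTsg101#1 replicate 2). Among the 8 members, signs changed only in values that had not been called. With siCtrl#2 as the reference JUN was -0.54 with siVps28#2 and -0.16 in the mean, FOSL1 was -0.24, -0.47, -0.10, -0.42 and -0.31 with siTsg101#1, siTsg101#2, siVps28#1, siVps28#2 and in the mean, and EGR1 was -0.10, -0.47 and -0.28 with siVps28#1, siVps28#2 and in the mean. There EGR2 was -0.19, MAP2K4 -0.0068, RPS6KA5 0.49 and HOOK2 0.60 in the mean. With both nontargeting siRNAs as the reference JUN was -0.23 and EGR1 -0.23 with siVps28#2, FOSL1 was -0.23, -0.18 and -0.067 with siTsg101#2, siVps28#2 and in the mean, and EGR1 -0.029 and HOOK2 0.29 in the mean. With siCtrl#2 as the reference without its replicate 1, chosen after seeing the data, JUN was -0.31 with siVps28#2, JUND 0.057 and 0.16 with siTsg101#1 and siTsg101#2, FOSL1 -0.23, -0.17 and -0.059 with siTsg101#2, siVps28#2 and in the mean, EGR1 -0.12 with siVps28#2, and MAP2K4 -0.092, RPS6KA5 0.58 and HOOK2 0.70 in the mean. FOSL1 with siTsg101#2 was -0.0073 with DESeq2 and with RLE size factors. Leaving out single libraries turned JUN with siTsg101#2 (-0.43 to 0.028) and siVps28#2 (-0.23 to 0.46), JUNB with siCtrl#2 (-0.042 to 0.42), JUND with siTsg101#1 (-0.33 to 0.18), siTsg101#2 (-0.23 to 0.28), siCtrl#2 (-0.19 to 0.36), in the mean (-0.068 to 0.44) and between siTsg101 siRNAs (-0.24 to 0.0055), FOS between targets (-0.057 to 0.068), FOSL1 with siTsg101#2 (-0.089 to 0.13), siVps28#2 (-0.17 to 0.28) and between targets (-0.21 to 0.028), ATF3 with siCtrl#2 (-0.44 to 0.22), EGR1 with siVps28#2 (-0.22 to 0.19) and between targets (-0.081 to 0.14), and HOOK2 in the mean (-0.12 to 0.029). The cause was not tested. A JUNB difference between siTsg101#1 and siTsg101#2 was called without siTsg101#1 replicate 2 (0.70). Low counts limit JUN and FOS, and with at least 10 counts in every library neither was tested.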

Other observations

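The level of some factors differed between batches when the libraries of all siRNAs were averaged. Over the 6 libraries of a batch, EGR1 averaged 516 ± 124 CPM in batch 1, 328 ± 28.5 in batch 2 and 419 ± 129 in batch 3 (SD), FOSL1 averaged 1066 ± 227, 791 ± 112 and 948 ± 292 CPM, and JUN averaged 3.56 ± 1.16, 1.93 ± 0.82 and 3.80 ± 1.83 CPM. FOS averaged 5.84, 5.86 and 6.83 CPM. These differences between batches were not tested.

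Within batches, FOS was above the siCtrl#1 library in 10 of 12 on-target libraries and EGR1 in 10, JUN in 9, JUND and FOSL1 in 8 each. In siCtrl#2, FOS, EGR1 and JUN were higher in 3 of 3 batches, FOSL1 in 2 and JUND and ATF3 in 1 each.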
